A study of Mus musculus with 8 samples.

Results

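Ephrins, their Eph receptors, netrins and netrin receptors are the cues and sensors by which growing axons are steered, and 32 genes of these families were examined in the olfactory mucosa of mice in which Emx2 was deleted from mature olfactory sensory neurons (OSNs). The genes were taken by symbol, and a gene was measured when a row of the array annotation named it and no other gene. This gave 30 genes, 11 of 12 ligands and 19 of 20 receptors, among 21789 transcript clusters tested in all, a transcript cluster being the unit in which this array merges the probes of a gene. Ephb2 had no such row and the row of Ntng2 names another gene as well, so neither was analysed here.

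Total RNA came from 8 mice at postnatal day 1, of mixed 129 x C57BL/6J background, with 1 array per mouse. The 4 knockouts were OmpCre:Emx2(fl/fl), so that both copies of Emx2, a homeodomain transcription factor gene, could be recombined. Of the 4 control littermates, 3 (numbered 1 to 3) had the genotype OmpCre:Emx2(fl/+), with Cre and a single floxed copy, and the remaining one, control 4, was Emx2(fl/fl) and had no Cre. The study places Cre in the Omp locus, which within the epithelium is active in mature OSNs, and a reporter showed recombination in only a part of them, so the dissected tissue also held many cells that had not lost Emx2. Signals were log2 values, and differences are log2 of knockout minus control ± SE from limma, with 4 mice per group. Array medians lay between 8.64 and 8.68. Control 2 stood apart from the other mice, and its immune cell markers averaged 10.05 against 8.79 to 8.92 in the others. Emx2 itself lay at 10.58 to 10.89 in controls and 10.14 to 10.34 in knockouts, without overlap (-0.55 ± 0.08, limma unadjusted p = 7.4e-05, limma adjusted p = 0.201).

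Ephrins are membrane-bound ligands. Those of class A are held by a lipid anchor and bind mainly EphA receptors, and those of class B span the membrane and bind mainly EphB receptors, while Eph receptors are tyrosine kinases that, on contact, usually make a growth cone withdraw. In OSNs, ephrin-A and EphA proteins are known to sit on axons in amounts that vary with the odorant receptor chosen, and they help axons of like identity to gather in glomeruli of the olfactory bulb. Netrins are secreted or surface-bound relatives of laminin that attract axons through DCC and repel them through UNC5 receptors. All these families are also used by blood vessels, bone and connective tissue, which the dissected mucosa contains.

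No guidance gene passed adjustment over all genes (smallest limma adjusted p = 0.846, for Epha7), and 0 of the 21789 clusters did (0%). At an unadjusted limma p under 0.05 stood 4 of the 30 genes (13.3%), where 5.17% of all clusters did. All 4 were receptors: Epha7, Epha4 and Dcc, 3 genes with larger signals in the knockouts (2.62% of all clusters were at that level in this direction), and Unc5b, with smaller ones (2.55%). Their sizes ran from -0.19 to 0.37 on the log2 scale, or from -12.5% to 28.9%. Of the 11 ligands, 0 did so. The difference between ligands and receptors was not tested.

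Epha7, the receptor tyrosine kinase EphA7, was the 1 guidance gene whose groups did not overlap, which 3.1% of all clusters also showed. Its log2 signal was 9.94, 9.997, 9.92 and 9.96 in controls 1 to 4 and 10.18, 10.09, 10.02 and 10.13 in knockouts 1 to 4. The lowest knockout, knockout 3, lay just above the highest control, control 2. The difference was 0.15 ± 0.05 (fold 1.11, 95% interval 0.04 to 0.26, limma adjusted p = 0.846). Its unadjusted p stayed under 0.05 when each mouse was left out (0.13 to 0.18), but not after adding the Y-linked signal to the fit (0.11).

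Epha4 encodes EphA4, a receptor that binds ephrins of both classes. It was measured at 8.92, 8.87, 9.06 and 8.93 in controls and at 9.28, 8.97, 9.13 and 9.10 in knockouts 1 to 4. Knockout 1 was the highest mouse, and knockout 2 lay below control 3. The difference was 0.18 ± 0.07 (fold 1.13, 95% interval 0.01 to 0.34, limma adjusted p = 0.910). Its unadjusted p stayed under 0.05 without control 3 or knockout 2 and not without any other mouse (0.12 without knockout 1), nor with quantile normalization, the Y-linked signal in the fit or the methods' t-test.

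Dcc encodes the receptor through which netrin-1 attracts axons. It was at 8.51, 8.89, 8.79 and 8.98 in controls 1 to 4 and at 9.47, 8.98, 9.16 and 9.03 in knockouts 1 to 4. Control 4 (8.985) and knockout 2 (8.9807) were almost level and were the only point of overlap. With 0.37 ± 0.13 (fold 1.29, 95% interval 0.07 to 0.67, limma adjusted p = 0.910) Dcc had the largest difference of the 30 genes. Control 1 was its lowest mouse and knockout 1 its highest, and the difference was 0.27 without control 1 and 0.26 without knockout 1, and the unadjusted p was above 0.05 in both and by the methods' t-test.

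Unc5b, a netrin receptor of the repulsive UNC5 family that is also known from blood vessels, went the other way. Its signals were 10.61, 10.34, 10.42 and 10.52 in controls 1 to 4 and 10.28, 10.22, 10.37 and 10.25 in knockouts 1 to 4. Only knockout 3 lay above a control, control 2. The difference was -0.19 ± 0.07 (fold 0.875, 95% interval -0.34 to -0.04, limma adjusted p = 0.879) and ranged from -0.24 to -0.15 when each mouse was left out, always with a p under 0.05. Scaling the arrays to a list of mature OSN genes reduced it to -0.08, with an unadjusted p above 0.05. This scaling also moved the median difference of all clusters from 0.0024 to 0.12. Epha7 was then at 0.27, Epha4 at 0.29 and Dcc at 0.48, each with an unadjusted limma p under 0.05.

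**Figure D1:**
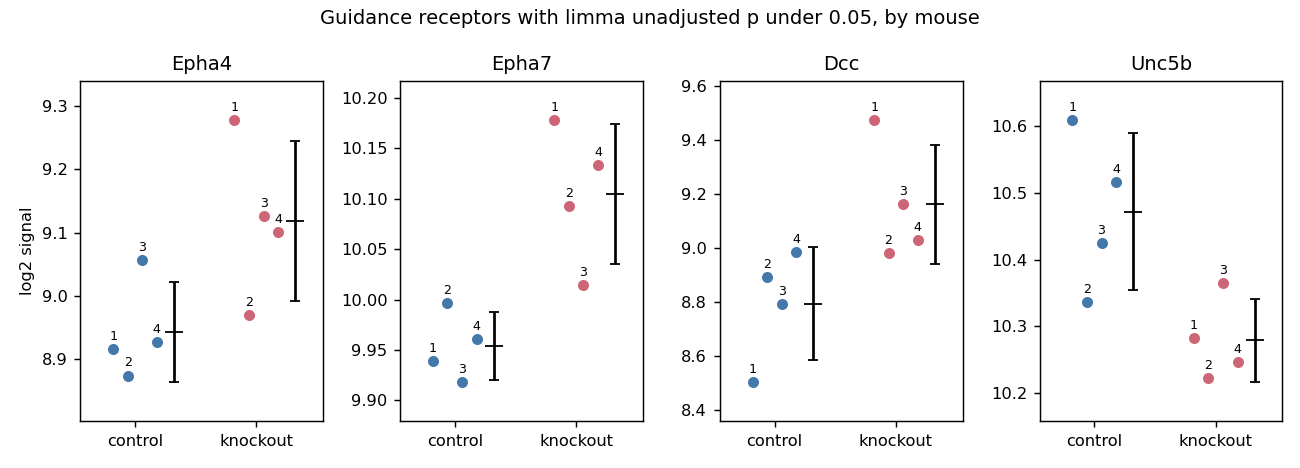
Log2 signal of Epha4, Epha7, Dcc and Unc5b in each mouse (points, numbered by mouse within its group), with group mean and SD (bars, n = 4). Knockouts and controls do not overlap for Epha7 (10.02 to 10.18 against 9.92 to 9.997), and knockout 1 is the highest mouse for Epha4, Epha7 and Dcc.

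The remaining UNC5 receptors and neogenin gave no unadjusted p under 0.05. Unc5c differed by 0.29 ± 0.15 (limma adjusted p = 0.910), from 8.52 to 9.19 in controls and 8.94 to 9.48 in knockouts, and control 1 and knockout 1 were again the lowest and the highest mouse. Its difference passed p under 0.05 without control 3 (0.39) or without knockout 3, and was 0.17 without control 1. Unc5a differed by 0.04 ± 0.11, Unc5d by 0.05 ± 0.10 and Neo1, whose product neogenin binds netrins and repulsive guidance molecules, by 0.05 ± 0.05. Neo1 was the best bounded of the netrin receptors, with a 95% interval of -0.06 to 0.17.

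None of the other Eph receptors had an unadjusted p under 0.05 with all 8 mice. Ephb4, the receptor of ephrin-B2 on veins, was at 9.96, 9.99, 10.04 and 10.01 in controls and 10.15, 10.08 and 10.12 in knockouts 1, 2 and 4, all above the controls. Knockout 3 lay between controls 2 and 4, for a difference of 0.09 ± 0.05 (limma adjusted p = 0.910), and without that mouse it was 0.11 with an unadjusted p under 0.05. Ephb3 differed by 0.05 ± 0.04 and Ephb1 by 0.0045 ± 0.07. Ephb6, which lacks an active kinase, differed by 0.01 ± 0.05, with a 95% interval of -0.09 to 0.12.

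Epha3, a receptor of mesenchyme and of growing axons, differed by 0.17 ± 0.17, and Epha6 by 0.15 ± 0.22. These were the 2 widest spreads among the Eph receptors, 0.84 and 1.16 log2 units between the lowest and the highest mouse. Epha6 was also the 1 guidance gene whose mean signal was under the 25th percentile of all clusters. Epha5, a partner of ephrin-A5 on OSN axons, differed by 0.07 ± 0.15 and turned to -0.07 without control 3. Epha10, which also lacks an active kinase, differed by 0.07 ± 0.08, Epha2 of epithelia by 0.05 ± 0.08, Epha1 by -0.01 ± 0.06 and Epha8 by -0.12 ± 0.10.

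Among the ephrins, 7 of 8 had a larger mean in the knockouts, by 0.0033 to 0.11, where 51.4% of all clusters did. Efnb3 differed by -0.07 ± 0.12. Without knockout 1, Efna1 was at -0.0053, Efna2 at -0.031 and Efnb1 at -0.016, while Efna3, Efna4, Efna5 and Efnb2 stayed above 0. With all 8 mice, Efna4 had the smallest p of class A, at 9.48, 9.51, 9.61 and 9.72 in controls and 9.70, 9.65, 9.78 and 9.61 in knockouts 1 to 4. The groups overlapped over most of this range (0.10 ± 0.07, limma adjusted p = 0.910), and the unadjusted p was under 0.05 without control 4 (0.15) and with the Y-linked signal in the fit (0.18). Efnb2, the ephrin of arteries and a ligand of Ephb4, was at 10.08, 10.05, 10.08 and 10.17 in controls and 10.37, 10.02, 10.21 and 10.22 in knockouts 1 to 4. Knockout 2 was the lowest mouse of all and the other 3 knockouts were above every control, giving 0.11 ± 0.07 (limma adjusted p = 0.910) and, without knockout 2, 0.17 with an unadjusted p under 0.05.

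Efna5, the ephrin-A best known from OSN axons, lay between 11.27 and 11.43 in controls and 11.26 and 11.48 in knockouts (0.03 ± 0.06, 95% interval -0.11 to 0.17). Efna3 differed by 0.06 ± 0.06, Efna1 by 0.03 ± 0.07, Efna2 by 0.0033 ± 0.09 and Efnb1 by 0.04 ± 0.07. Efna1, Efna3 and Efna4 stand next to each other in the mouse genome, with 0 coding genes between them, and all 3 differences lay between 0.03 and 0.10.

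Among the netrins, Ntn1, the diffusible ligand of DCC and UNC5 receptors, was at -0.03 ± 0.08, from 9.81 to 10.07 in controls and 9.72 to 10.01 in knockouts. Ntn4, a netrin of basement membranes, was at 8.71, 8.83, 8.77 and 8.62 in controls and 8.76, 8.80, 8.81 and 8.78 in knockouts 1 to 4, so that all knockouts lay within the range of the controls (0.06 ± 0.05, limma adjusted p = 0.911). Ntng1 encodes netrin-G1, a lipid-anchored protein that does not bind DCC. It was at 8.30, 8.46, 8.63 and 8.46 in controls and 8.45, 8.52, 8.38 and 8.45 in knockouts 1 to 4 (-0.01 ± 0.07, limma adjusted p = 0.988).

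For the 11 ligands together, the 95% intervals all held 0 and reached from -0.34 to 0.27 at their outermost, the lower end for Efnb3 and the upper for Efnb2. A p that misses the threshold does not show that these genes were unchanged, and the intervals give the sizes that the 8 arrays leave possible. Of the 4 genes with more than 1 row of their own, the rows of Ephb1 and Unc5d gave differences of the same sign. For Epha10 the row used was at 0.07 and the other at -0.08. For Ntng1 the row of highest signal, which the annotation ties to no RefSeq mRNA, was at -0.01, and the row tied to its RefSeq mRNAs was at 0.22 ± 0.14 (limma adjusted p = 0.910).

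**Figure D2:**
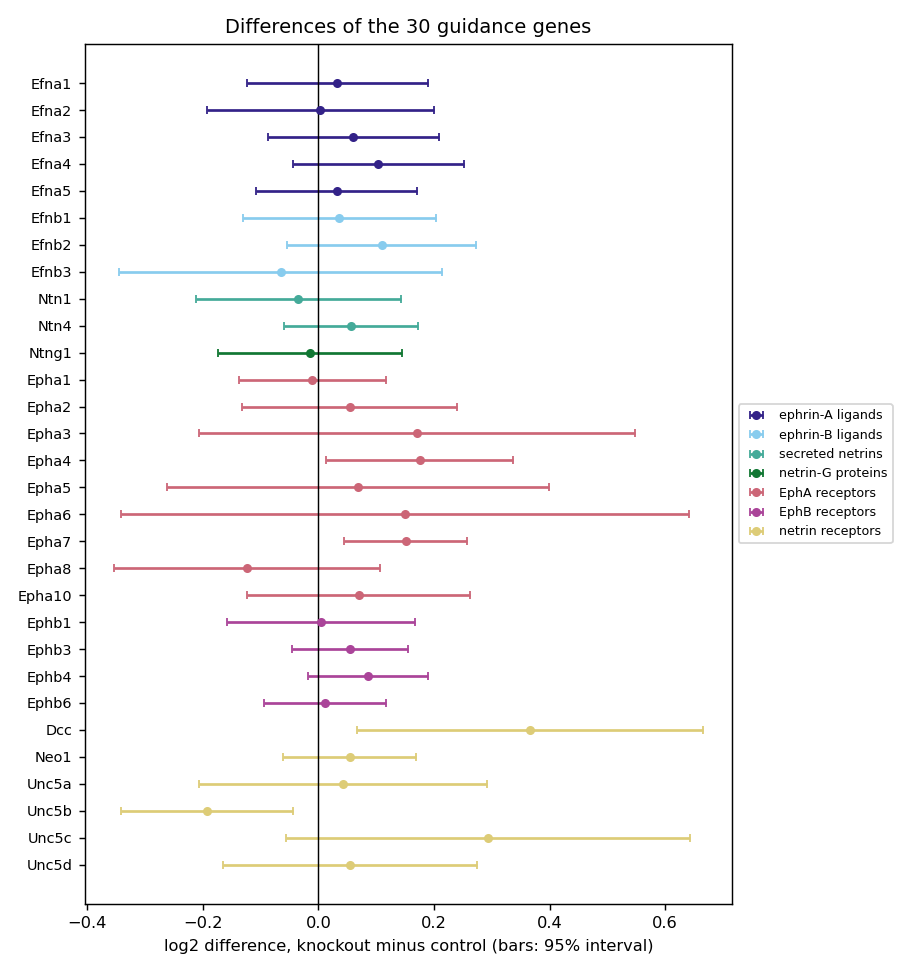
Log2 difference of knockout minus control for the 30 guidance genes (points), with 95% intervals from limma (bars), coloured by role. The intervals of Epha4, Epha7 and Dcc lie above 0 and that of Unc5b below it, before adjustment for the number of genes tested, and those of all 11 ligands include 0.

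Across roles, 24 of the 30 genes had a larger mean in the knockouts, where 51.4% of all clusters did. These were 8 of 11 ligands (median 0.03) and 16 of 19 receptors (median 0.05), beside a median of 0.0024 over all clusters. By class they were 5 of 5 class A ephrins, 2 of 3 class B ephrins, 7 of 9 EphA receptors, 4 of 4 EphB receptors, 5 of 6 netrin receptors and 1 of 3 netrin ligands. Genes of 1 sample share its RNA, so these counts are not independent of each other and have no test. Scaling by the mature OSN genes moved the median of all clusters to 0.12, and 28 of 30 guidance genes were then larger, where 90.7% of all clusters were. With quantile normalization 21 of 30 were, where 44.8% of all clusters were.

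This tilt lay mainly in 2 mice. Knockout 1 was the highest mouse for 13 of the 30 genes, among them Dcc, Unc5c, Epha3, Epha4, Epha6 and Epha7, and was the highest in 14.3% of all clusters. Control 1 was the lowest mouse for 13, among them Dcc, Unc5c and Epha6, and the lowest in 16.7% of all clusters. The median guidance gene lay 0.11 above its own mean in knockout 1 and 0.09 below it in control 1, and between -0.04 and 0.02 in the other mice. Without control 1 or without knockout 1, 19 of 30 genes had a larger mean in the knockouts, where 48.1% and 50.3% of all clusters did. In each case 2 of the 30 (6.67%), Epha7 and Unc5b, kept an unadjusted limma p under 0.05. Of all clusters, 7.97% were at that level without control 1 and 3.86% without knockout 1. With both left out, 16 of 30 had a larger mean, where 47.1% of all clusters did. Then Epha7 was at 0.12, Dcc at 0.17, Unc5b at -0.15 and Epha4 at 0.11, all with an unadjusted p above 0.05, and Efnb3 at -0.25 was the 1 guidance gene under 0.05, as were 6.65% of all clusters. This setting was chosen after the values were seen.

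**Figure D3:**
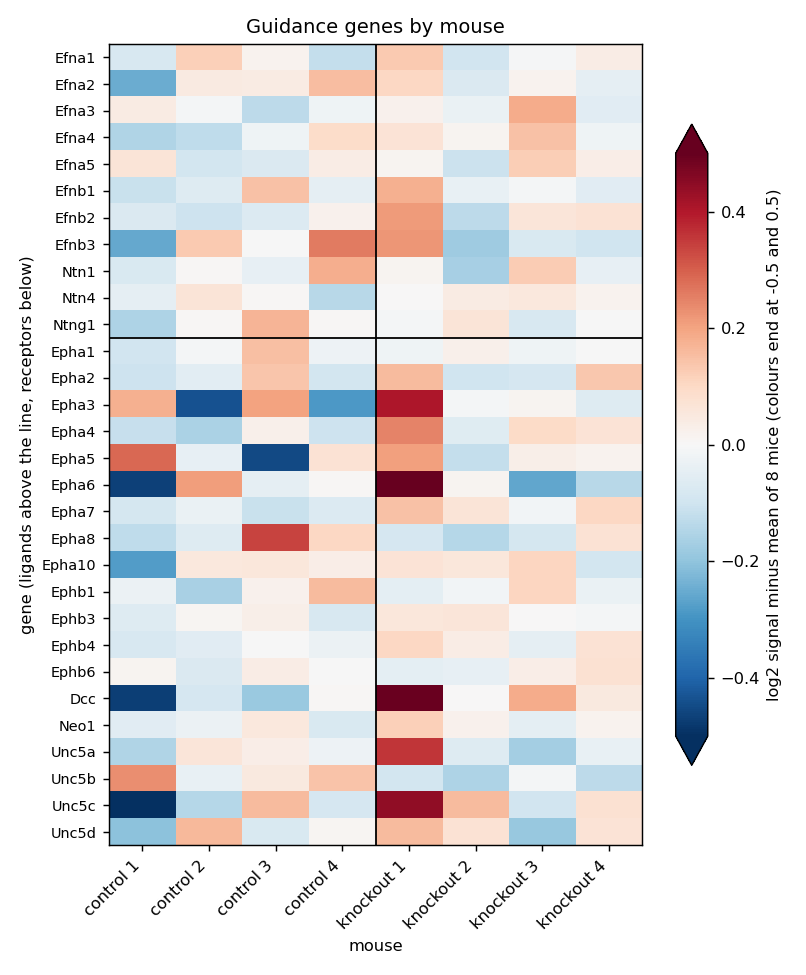
Log2 signal of each guidance gene in each mouse, relative to the gene's mean over the 8 mice (colour, ending at -0.5 and 0.5), with ligands above the horizontal line and receptors below. Knockout 1 holds the highest value of 13 genes and control 1 the lowest of 13.

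Control 1 and knockout 1 were also at opposite ends of the marker lists of mature OSNs and of brain neurons. Several other lists had 1 of these mice at 1 end. Knockout 1 was highest for fibroblasts, for cartilage and bone (10.43) and for ensheathing glia (10.10), and lowest for sustentacular cells (12.22). Control 1 was highest for red blood cells (8.76) and lowest for skeletal muscle (7.69). The mature OSN list averaged 11.59 to 11.91 in controls and 11.57 to 11.79 in knockouts, highest in control 1 and lowest in knockout 1, and 19 of its 24 measured genes had a smaller mean in the knockouts. At an unadjusted limma p under 0.05 stood 5 of the 24, beside 5.17% of all clusters. All 10 fibroblast and mesenchyme genes had a larger mean in the knockouts, beside 51.4% of all clusters, 3 of them at p under 0.05, and the list lay between 11.20 and 11.53 in controls and 11.44 and 11.66 in knockouts, highest in knockout 1. Likewise 9 of 9 cartilage and bone genes and 10 of 11 endothelial genes were larger, 0 of them at p under 0.05. Markers of dividing and globose basal cells were larger in 11 of 12 cases and 1 was at p under 0.05, and the list lay between 11.02 and 11.44 in controls and 11.39 and 11.54 in knockouts, highest in knockout 3. Endothelial genes ranged from 9.29 to 9.41 in controls and 9.09 to 9.65 in knockouts, lowest in knockout 3 and highest in knockout 4. Genes of brain neurons, which a dissection could carry along, averaged 8.01 in control 1 and 8.74 in knockout 1, their lowest and highest mouse. The list lay between 8.01 and 8.68 in controls and 8.16 and 8.74 in knockouts, and control 2 (8.68) was close to knockout 1. Of its 10 genes, 5 had a larger and 5 a smaller mean in the knockouts, 1 of them at p under 0.05. Immature OSN genes ranged from 11.71 to 11.87 in controls and 11.70 to 11.81 in knockouts. Of the 17 measured, 12 had a smaller mean in the knockouts, and 3 of the 17 were at p under 0.05, beside 5.17% of all clusters. Gap43 was at -0.11 ± 0.05 and the mature marker Omp at -0.27 ± 0.19. Cre was inserted in the Omp locus itself in every mouse but control 4, so the groups also differed at that locus. Omp was at 13.285 in control 4 and 13.43 in control 1, which had Cre, and the part of the insertion was not tested. The study reports that conditional deletion of Emx2 left mature and immature OSN numbers unaffected, and the lists here did not count cells. In a whole tissue, fewer cells of a type and less RNA per cell cannot be told apart, and the part of these cells in the guidance gene values was not tested.

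**Figure D4:**
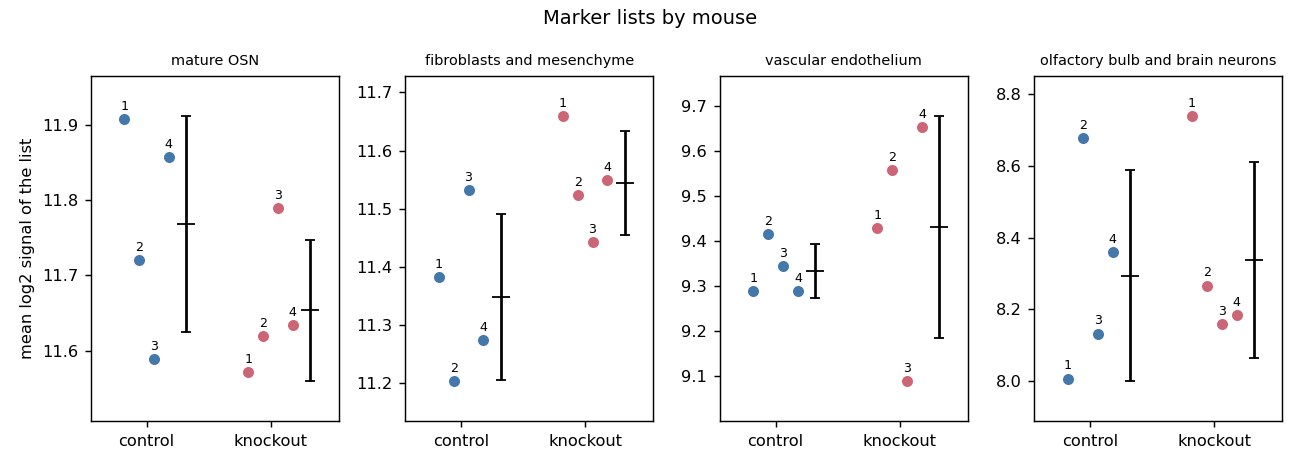
Mean log2 signal of 4 marker lists in each mouse (points, numbered by mouse within its group), with group mean and SD (bars, n = 4). Control 1 is the highest mouse for mature OSN genes (11.91) and the lowest for brain neuron genes (8.01), and knockout 1 is the lowest (11.57) and the highest (8.74).

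The study used mice of both sexes, and Y-linked signal was split unevenly between the groups. It was high in controls 2 to 4 and knockout 3 and low in control 1 and knockouts 1, 2 and 4. Each comparison within a set therefore had a single mouse on 1 side. Within the high set and the low set, Epha4 differed by 0.17 and 0.20, Epha7 by 0.06 and 0.20, Dcc by 0.27 and 0.65, and Unc5b by -0.06 and -0.36. These 4 kept their sign in both sets. Unc5c was at -0.07 in the high set and 0.74 in the low set. These values within sets were not tested. With the Y-linked signal as a term of the fit over all 8 mice, Dcc was at 0.45 and Unc5b at -0.20, both with an unadjusted limma p under 0.05, and Epha4 at 0.18, Epha7 at 0.11 and Unc5c at 0.29, with p above it.

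Other genes of the same pathways were counted in the same fit. Of 24 partners of Eph signalling, 16 had a larger mean in the knockouts and 1 was at an unadjusted limma p under 0.05 (4.17%), where 51.4% and 5.17% of all clusters were. This was Vav2, known for a part in Eph receptor uptake, at 9.83, 9.81, 9.74 and 9.75 in controls and 9.58, 9.72, 9.70 and 9.70 in knockouts 1 to 4. Its groups did not overlap, as in 3.1% of all clusters (-0.11 ± 0.05, limma adjusted p = 0.910), but its unadjusted p was under 0.05 in only 2 of the 8 settings that left out a mouse. Scaling to mature OSN genes, which moved the median of all clusters to 0.12, turned the difference to 0.0046, with an unadjusted p above 0.05.

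Of 23 measured partners of netrins and their receptors, 17 had a larger mean and 2 were at p under 0.05 (8.70%), beside the same 51.4% and 5.17% of all clusters. Flrt1, whose product is a surface protein of a family that binds UNC5 receptors, was at 12.15, 12.11, 12.01 and 12.18 in controls and 11.80, 11.81, 12.03 and 11.89 in knockouts 1 to 4. Only knockout 3 reached the range of the controls, and the difference was -0.23 ± 0.06 (fold 0.851, limma adjusted p = 0.739), or -0.12 with an unadjusted p above 0.05 after scaling to mature OSN genes. Siah1a, a ubiquitin ligase known to target DCC for breakdown, was at 9.11, 9.06, 8.95 and 9.16 in controls and 9.16, 9.26, 9.30 and 9.28 in knockouts 1 to 4. Its groups did not overlap either, control 4 and knockout 1 being nearly level (0.18 ± 0.06, limma adjusted p = 0.871). Scaled to mature OSN genes, Siah1a was at 0.29, with an unadjusted limma p under 0.05. Flrt1 and Siah1a had an unadjusted p under 0.05 in all 8 settings that left out a mouse. Of the ligands of neogenin and netrin-G1, Rgma differed by 0.08 ± 0.05, Rgmb by 0.04 ± 0.05 and Lrrc4c by 0.18 ± 0.10, with unadjusted p above 0.05.

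**Figure D5:**
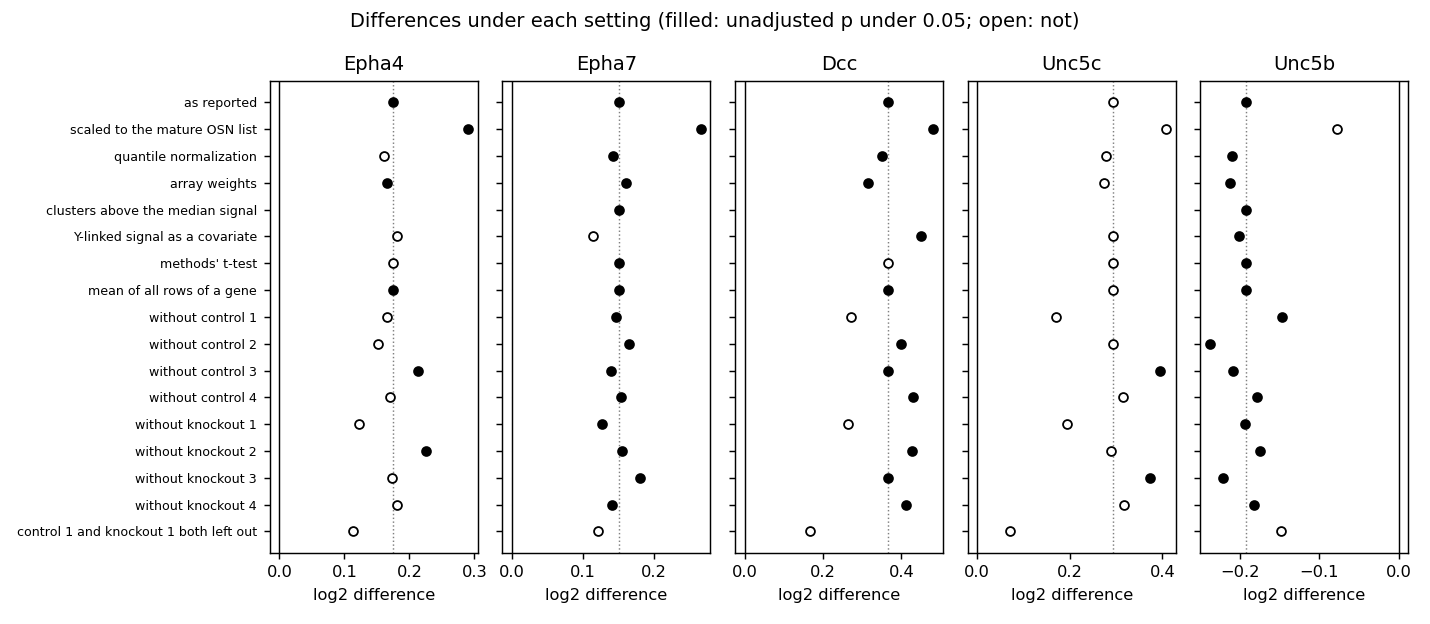
Log2 difference of 5 netrin and Eph receptors (columns) under each setting (rows), with filled points at an unadjusted p under 0.05, open points otherwise, and a dotted line at the value as reported. No point crosses 0, and Epha7 and Unc5b are filled in all 8 settings that leave out 1 mouse. Epha4, Dcc and Unc5c have no point where clusters under the median signal were left out.

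Because the deleted factor is a homeodomain protein, the DNA before the start of these genes is shown for the receptors of smallest p with a promoter in the table used. In RefSeq (GRCm38.p6), 28 of the 32 genes had promoter windows of 300 bases (31 windows). The letters TAAT, the core that many homeodomain proteins bind, were searched on both strands, as TAAT or ATTA, and occurred in 11 of the 31 windows (35.5%) and in 58.0% of all 32851 windows. TAATTA, which holds both, occurred in 2 of 31 (6.45%) and in 5.29% of all, and these 2 belonged to Efna1 and Epha5. The sequences below run 5′ to 3′ on the strand of the gene, are cut before its outermost annotated start, and would have each TAAT or ATTA in capitals. None of the 3 stretches held one. They are Epha4 at chr1:77515108-77515338 on the minus strand (231 bases), Epha7 at chr4:28812881-28813065 on the plus strand (185 bases) and Unc5b at chr10:60831582-60831831 on the minus strand (250 bases), rich in G and C (66.8% to 69.7%).
Epha4: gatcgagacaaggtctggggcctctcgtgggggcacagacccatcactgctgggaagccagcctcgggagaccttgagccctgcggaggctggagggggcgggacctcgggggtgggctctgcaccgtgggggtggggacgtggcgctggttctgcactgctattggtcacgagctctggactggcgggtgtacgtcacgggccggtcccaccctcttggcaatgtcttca
Epha7: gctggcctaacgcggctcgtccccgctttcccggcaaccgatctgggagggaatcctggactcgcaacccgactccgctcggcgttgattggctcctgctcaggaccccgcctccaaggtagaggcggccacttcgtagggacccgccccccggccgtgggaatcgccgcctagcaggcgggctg
Unc5b: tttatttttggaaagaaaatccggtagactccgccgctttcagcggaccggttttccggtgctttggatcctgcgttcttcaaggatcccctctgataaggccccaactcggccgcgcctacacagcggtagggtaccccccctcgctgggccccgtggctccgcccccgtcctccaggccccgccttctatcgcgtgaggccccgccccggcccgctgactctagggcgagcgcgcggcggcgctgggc

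Further on, at the annotated start of Epha7 transcripts, its window held the letters once in each orientation, at chr4:28813117-28813146 on the plus strand, shown with both in capitals.
Epha7 start: cctccccccTAATtgatATTAttggagtgt

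A match of letters is not a bound site, and these arrays measured no binding. The windows of Epha4 and Unc5b held 0 matches over all 300 bases, those of Unc5c 1 and those of Ephb4 1. Promoters of Efnb3, Ntn1, Dcc and Unc5d are not shown here.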

How the data were processed

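RNA abundance was measured on an Affymetrix whole-transcript mouse array, the Mouse Gene 1.0 ST, in 8 mice, 1 array per mouse. The authors deposited a log2 signal for each transcript cluster, and Affymetrix Expression Console is the tool that the submitters' notes on processing list. Its version and its summarisation algorithm are not given in the sources used here. The signals were used as deposited. Precision is limited by how many arrays there were.

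Genes were named through the annotation of the platform. Of 35557 clusters, 21789 named exactly 1 gene and were tested. For a gene with several rows, the row with the highest mean over the 8 arrays was used. Replicate numbers follow accession order and pair no samples, and litters are not in the labels. The guidance genes and the lists of partners and markers were chosen with earlier results of these data known, so no test over a list was made.

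Knockouts were compared with controls by limma 3.58.1 in R 4.3.3 (lmFit and eBayes, two-sided), with Benjamini-Hochberg adjustment over the 21789 clusters at 0.05. All 30 measured genes are reported. Values per mouse are given for those at p under 0.05 or without overlap and for the smallest p of each role. Alternatives were scaling to the mature OSN list (24 of 25 genes measured), quantile normalization, array weights, clusters above the median signal, the mean Y-linked signal as a covariate, the methods' t-test, the mean of all rows of a gene, and leaving out each mouse. The fits were tested on simulated data. Promoter sequences are from RefSeq, and the array values carry no build.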

Additional observations from a re-analysis of the deposited data

Results flagged for a closer look

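Of 100 groups of 4 mice examined (30 guidance genes, 3 partner genes and 17 marker lists, in controls and in knockouts), 7 had a mouse far from the others, the gap to its nearest neighbour being too large a part of the group's range by Dixon's critical value for 4. Chance gives about 1 in 20 groups, a rate that cannot be applied to the Y-linked list, whose values fall into a high and a low set. The ratios that follow are this gap divided by the range of the group, not log2 distances. Epha3 in knockouts had a ratio of 0.834, with knockout 1 at 9.17 and the others at 8.70 to 8.78. Epha10 in controls had a ratio of 0.938, with control 1 at 7.73 and the others at 8.05 to 8.07. Vav2 in knockouts had a ratio of 0.835, with knockout 1 at 9.58 and the others at 9.70 to 9.72. The immune cell list in controls had a ratio of 0.946, with control 2 at 10.05 and the others at 8.80 to 8.87. The skeletal muscle list in knockouts had a ratio of 0.854, with knockout 3 at 7.70 and the others at 7.79 to 7.81. The Y-linked list had a ratio of 0.963 in controls, with control 1 at 8.09 and the others at 10.53 to 10.63. In knockouts its ratio was 0.874, with knockout 3 at 10.72 and the others at 7.05 to 7.51.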

How the results depend on the processing

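No guidance gene passed adjustment over all genes in any setting, and 14 of the 30 kept their sign in every setting that held them. Of these 14, Epha3, Epha4, Epha8, Ntn4, Dcc and Unc5c had no value where clusters under the median signal were left out. The cause of each change below was not tested. Between 2 and 5 guidance genes, 2 to 5 receptors and 0 to 1 ligands were at a limma p under 0.05 when each mouse was left out, with 734 to 1736 of all clusters at that level and 0 to 1 past adjustment. The medians then ran from -0.0053 to 0.055 for ligands and from 0.024 to 0.092 for receptors. Scaling to the mature OSN list gave medians of 0.15 for ligands and 0.17 for receptors and 5 clusters past adjustment, and array weights gave 5 such clusters. Clusters above the median signal gave 2, with 14 guidance genes left. Of these 14, 2 (14.3%), both receptors, were at p under 0.05, beside 695 of 10895 clusters (6.38%). With the Y-linked covariate, 2 receptors and 1 ligand (10% of the guidance genes) were at p under 0.05, beside 692 of all clusters (3.18%). The methods' t-test counted 2 guidance genes (6.67%), both receptors, beside 4.96% of all clusters. With control 1 and knockout 1 both left out there was 1 (3.33%), a ligand, with 0 receptors, beside 6.65% of all clusters.

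Signs turned under the mature OSN scaling in Efnb3 (0.050), Epha1 (0.10), Ntn1 (0.080), Ntng1 (0.10) and Vav2 (0.0046); under quantile normalization in Efna2 (-0.0099), Ephb1 (-0.0065) and Ephb6 (-0.00058); under array weights in Efna2 (-0.031) and Ephb1 (-0.035); under the Y-linked covariate in Efnb3 (0.0025), Epha1 (0.014), Epha5 (-0.044), Ntn1 (0.060), Ntng1 (0.0045) and Unc5a (-0.013); with the mean of all rows in Epha10 (-0.0044) and Ntng1 (0.11); and with control 1 and knockout 1 both left out in Efna1 (-0.027), Efna2 (-0.11), Efnb1 (-0.047), Epha2 (-0.014), Epha6 (-0.19), Epha10 (-0.024), Unc5a (-0.11) and Unc5d (-0.049). When each mouse was left out, the genes whose sign turned ranged as follows: Efna2 -0.079 to 0.055, Epha10 -0.012 to 0.11, Ephb1 -0.048 to 0.058, Unc5a -0.069 to 0.11, Unc5d -0.0052 to 0.13, Ephb6 -0.012 to 0.029, Epha1 -0.044 to 0.038, Epha5 -0.072 to 0.17, Ntng1 -0.068 to 0.040, Efna1 -0.0053 to 0.078, Efnb3 -0.16 to 0.011, Ntn1 -0.083 to 0.020, Efnb1 -0.016 to 0.091, Epha6 -0.055 to 0.26 and Efna5 -0.0041 to 0.072. No paired analysis was possible because the labels give no replicate numbers or litters that pair mice.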
